A study of Mus musculus with 10 samples.

Results

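Transcripts of 10 neuronal genes were followed in RNA from CD11b-selected brain microglia, a cell preparation in which neurons are not the target. The 10 genes were a chosen list of neuronal symbols, Nrgn, Camk2a, Snap25, Syt1, Syp, Slc17a7, Gad1, Rbfox3, Nefl and Meg3, out of 46152 genes counted, and all 10 were found by their NCBI gene identifiers. Gene positions are those of GRCm38. C57BL/6J mice of 8 to 12 weeks of age received GW2580, an inhibitor of the CSF1 receptor kinase, by gavage at 80 mg/kg/d over 8 days, or only the gavage vehicle of Tween 80 and hydroxymethyl propyl-cellulose. There were 5 libraries a group, from 2 male and 3 female mice each, with no transgene and no disease model in either group. Brains were digested with Accutase, the cells were enriched on Percoll and then pulled out with a CD11b positive selection kit, and cDNA was made with the SMART-Seq v4 PLUS kit. The question asked of these genes was how much neuronal RNA each library held and whether it differed with GW2580.

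CD11b is a myeloid integrin that neurons do not carry, so neuronal genes are the usual markers of neuronal RNA in a microglial preparation. The genes describe the working parts of a synapse: vesicles are filled with transmitter, fused with the presynaptic membrane by the SNARE complex on a calcium signal, and read on the other side by receptors coupled to calmodulin and CaMKII. Excitatory neurons are told from inhibitory ones by the transporter that loads glutamate and the enzyme that makes GABA.

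Promoters from 250 bases before to 50 bases after the annotated start were at hand in RefSeq GRCm38.p6 for 7 of the 10 genes, Nrgn, Slc17a7, Syt1, Syp, Gad1, Rbfox3 and Meg3. The 3 shown belong to genes whose levels were spread over the libraries in 3 different ways: Nrgn, which stood out in 1 library, Slc17a7, which was high in 3 libraries, and Syt1, which was the most even of the 3. They lie at chr9:37552696-37552995 on the minus strand, chr7:45163671-45163970 on the plus strand and chr10:109010926-109011225 on the minus strand. Capitals mark the GC box, searched as GGGCGG and, for the other strand, CCGCCC.
Nrgn: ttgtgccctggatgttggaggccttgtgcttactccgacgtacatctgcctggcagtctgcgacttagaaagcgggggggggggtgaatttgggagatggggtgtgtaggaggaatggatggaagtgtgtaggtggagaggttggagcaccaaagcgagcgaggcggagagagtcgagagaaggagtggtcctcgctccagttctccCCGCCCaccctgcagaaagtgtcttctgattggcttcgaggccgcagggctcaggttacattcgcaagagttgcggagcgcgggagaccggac
Slc17a7: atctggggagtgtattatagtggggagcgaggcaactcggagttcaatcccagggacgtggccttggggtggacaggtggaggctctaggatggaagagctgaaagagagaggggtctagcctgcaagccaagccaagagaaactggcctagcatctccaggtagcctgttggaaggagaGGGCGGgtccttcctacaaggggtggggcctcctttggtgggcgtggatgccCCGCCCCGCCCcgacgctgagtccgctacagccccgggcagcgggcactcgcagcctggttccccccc
Syt1: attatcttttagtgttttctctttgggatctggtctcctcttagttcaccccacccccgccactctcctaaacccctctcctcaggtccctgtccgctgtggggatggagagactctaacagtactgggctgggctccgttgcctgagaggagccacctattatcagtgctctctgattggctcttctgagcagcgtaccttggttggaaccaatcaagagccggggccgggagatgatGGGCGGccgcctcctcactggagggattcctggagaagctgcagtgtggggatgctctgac
Nrgn and Syt1 each held 1 GC box and Slc17a7 held 3, of which 2 overlapped by 1 base. A GC box was found in 35.7% of 32851 mouse promoter windows of the same length. The left and right portions of the RE1 element, to which the neuronal repressor REST binds, were searched as TTCAGCAC and GGACAGC on both strands. Neither portion was present in any of the windows of these 7 genes, against 1.17% and 6.56% of all windows. The cAMP response element TGACGTCA, found in 1.79% of all windows, was present in 1 of the 2 Meg3 windows and in no other window of these genes.

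The libraries held between 12550418 and 26079343 fragments assigned to genes, 12550418 to 20854218 in the vehicle group and 13228819 to 26079343 in the GW2580 group. Values are CPM, gene counts brought to one common library total, after TMM scaling, which evens out differences in library make-up by a trimmed mean of ratios and used factors between 0.691 and 1.61. Genes that define the labelled cell type were abundant: the summed level of the 13 tested microglial markers lay between 23010 and 96594 CPM. Of the 15 microglial markers listed, Aif1 had no count in any library and Trem2 was too low to be tested. Aif1 was annotated on 4 sequences of the assembly and Trem2 on 2. Markers of other brain cells were not even across the libraries. The 10 tested oligodendrocyte markers summed to 17995 CPM in Vehicle 2, 4446 CPM in Vehicle 5 and 1802 CPM in GW2580 4, against 165 to 606 CPM in the other 7 libraries. The 8 tested choroid plexus and ependymal markers summed to 27675 CPM in Vehicle 5, against 190 to 3557 CPM elsewhere. Nothing in the labels sets these 3 libraries apart, so the fold changes of the 9 tested genes and the pooled counts over the neuronal, astrocyte, oligodendrocyte and choroid plexus lists are given with and without them. As in all bulk RNA, fewer cells of a type and less RNA per cell cannot be told apart. The labels give each library as a separate sample, and p-values measure the spread between these libraries. A gene is said to be called where its fitted fold change was over 2 and its unadjusted p in edgeR was under 0.05.

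The neuronal signal was concentrated in the same 3 libraries. The summed level of the 9 genes that could be tested was 1596 CPM in Vehicle 2, 334 CPM in Vehicle 5 and 302 CPM in GW2580 4. In the other 7 libraries the sum lay between 70.0 and 98.6 CPM. On library size alone, without TMM, the sum was 1397 CPM in Vehicle 2, 285 CPM in Vehicle 5 and 482 CPM in GW2580 4, so that GW2580 4 came before Vehicle 5, and 52.7 to 108 CPM in the other 7. The vehicle group had a mean of 432 ± 661 CPM (SD, n = 5) and the GW2580 group 124 ± 99.7 CPM (SD, n = 5), while the medians were 83.0 and 76.4 CPM. The difference of means, -307 CPM, was smaller than the SD of the vehicle group, and it was -16.1 CPM without Vehicle 2 and 48.4 CPM without Vehicle 2 and Vehicle 5. Vehicle 2, Vehicle 5 and GW2580 4 took the first 3 places for 7 of the 9 genes, the exceptions being Syt1 and Rbfox3. Vehicle 2 was the highest library for 7 of the 9 genes and Vehicle 5 for the remaining 2, Camk2a and Slc17a7. Over all 28419 genes tested, Vehicle 2 was the highest library for 13.5% and Vehicle 5 for 23%.

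**Figure D1:**
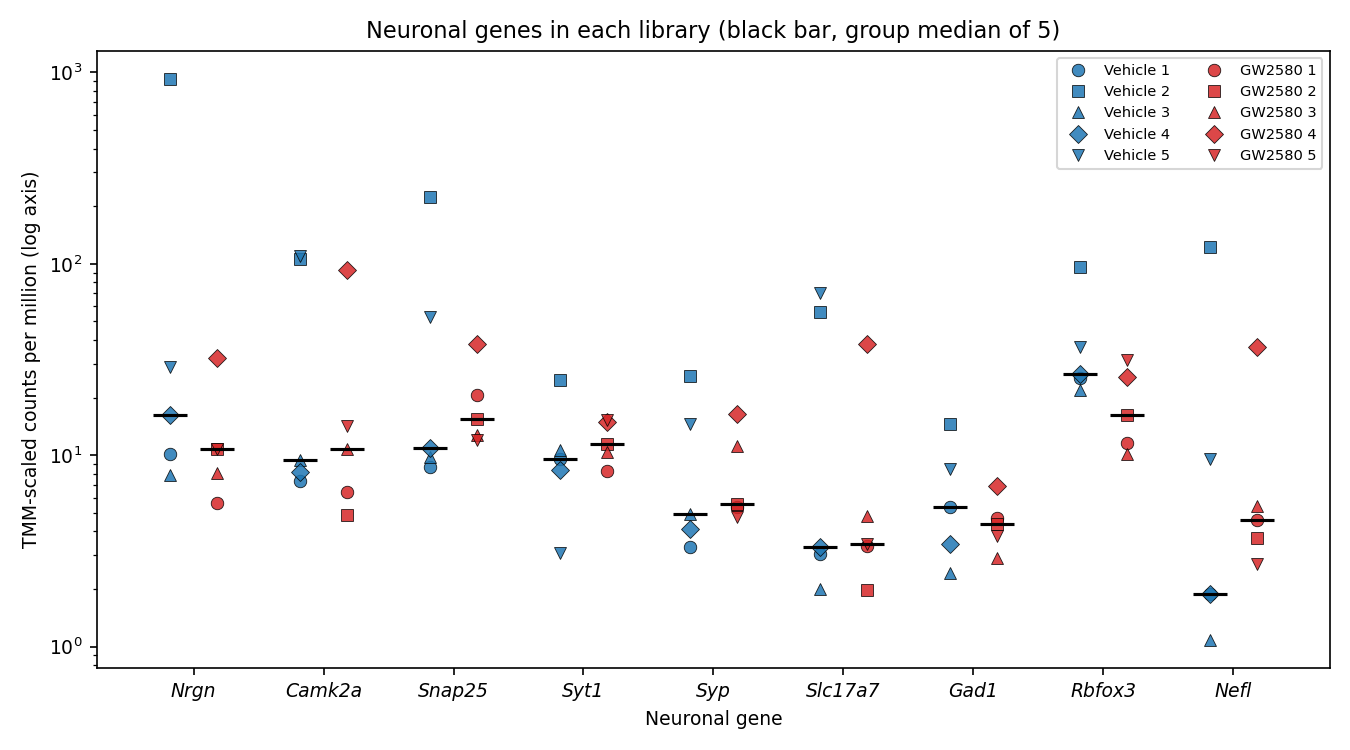
TMM-scaled CPM (log axis) of the 9 tested neuronal genes in each of 10 libraries, vehicle in blue and GW2580 in red, with the library given by the marker shape and the group median of 5 libraries by a black bar. Single libraries sit far above the rest, with Nrgn at 926 CPM in Vehicle 2, and the 2 groups overlap for every gene.

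Nrgn and Camk2a are the postsynaptic members. Nrgn (NCBI gene 64011, chr9:37544493-37552745) encodes neurogranin, which holds calmodulin in dendritic spines of forebrain neurons. The level of Nrgn was 10.1, 926, 7.85, 16.2 and 29.0 CPM in Vehicle 1 to 5 and 5.60, 10.8, 8.06, 32.0 and 10.8 CPM in GW2580 1 to 5. Vehicle 2 was far above every other library, and the remaining 4 vehicle libraries lay within the range of the GW2580 libraries. The group means were 198 ± 407 CPM in the vehicle group and 13.5 ± 10.6 CPM in the GW2580 group (SD, n = 5 each). The fitted log2 fold change with GW2580 was -3.87 ± 1.26 (SE), with edgeR p = 0.00814 and adjusted p = 0.280 in the quasi-likelihood test and p = 0.349 in an exact permutation test of the difference of means. That permutation test ran over all 252 ways of choosing 5 of 10 libraries, and the smallest p it can give is 0.00794. Nrgn was called lower, but without Vehicle 2 it was not called and the log2 fold change was -0.23 ± 0.53 (adjusted p = 0.909).

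Camk2a (NCBI gene 12322, chr18:60925307-60988152) encodes the alpha subunit of CaMKII, the abundant protein kinase of excitatory synapses. Camk2a was at 7.36, 106, 9.44, 8.21 and 109 CPM in Vehicle 1 to 5 and at 6.42, 4.88, 10.7, 93.0 and 14.2 CPM in GW2580 1 to 5. Unlike Nrgn, it was about equally high in Vehicle 2, Vehicle 5 and GW2580 4, and the groups overlapped. GW2580 against vehicle gave a log2 fold change of -0.90 ± 0.94 (edgeR p = 0.358, adjusted p = 0.666; exact permutation p = 0.341). Without GW2580 4 it was -2.40 ± 0.88 (adjusted p = 0.417), a call, and without Vehicle 2 and Vehicle 5 it was 1.62 ± 0.80 (adjusted p = 0.368), not a call.

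The vesicle members are Snap25, Syt1 and Syp. Snap25 (NCBI gene 20614, chr2:136713439-136782428) encodes a SNARE protein of the presynaptic membrane, and of the 9 genes it lay closest to their mean profile over the libraries. The level of Snap25 was 8.66, 224, 9.77, 10.9 and 52.6 CPM in Vehicle 1 to 5 and 20.6, 15.5, 12.7, 38.1 and 12.1 CPM in GW2580 1 to 5. Vehicle 2 and Vehicle 5 were the highest, yet after TMM each of the other 3 vehicle libraries was below every GW2580 library. On library size alone this did not hold for GW2580 3. It had 229 Snap25 counts of 26079343 fragments, a smaller share than the 189 of 17913818 in Vehicle 4. Snap25 had a log2 fold change of -1.63 ± 0.82 (edgeR p = 0.0660, adjusted p = 0.365; exact permutation p = 0.5). Without Vehicle 2 and Vehicle 5 it turned to 1.01 ± 0.38 (adjusted p = 0.351) and was called higher, and without GW2580 4 it was -1.99 ± 0.91 (adjusted p = 0.427) and called lower. Snap25 was also called lower without Vehicle 1, Vehicle 3 or Vehicle 4, by DESeq2 and the edgeR exact test, and with no filter on low counts.

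Syt1 (NCBI gene 20979, chr10:108497650-109010980) encodes synaptotagmin 1, the calcium sensor of fast vesicle release. Syt1 was at 9.60, 24.7, 10.7, 8.38 and 3.09 CPM in Vehicle 1 to 5 and at 8.27, 11.5, 10.4, 15.0 and 15.3 CPM in GW2580 1 to 5. It was the most even of the 9 genes after Gad1 and Syp, with 8.00 times between the highest and lowest library. Vehicle 5, in which Camk2a and Slc17a7 were highest, was the lowest library for Syt1. Its log2 fold change was 0.10 ± 0.44 (edgeR p = 0.826, adjusted p = 0.933; exact permutation p = 0.889).

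Syp (NCBI gene 20977, chrX:7638580-7653256) encodes synaptophysin, an abundant membrane protein of synaptic vesicles. It was at 3.32, 26.0, 4.93, 4.13 and 14.6 CPM in Vehicle 1 to 5 and at 5.34, 5.54, 11.2, 16.4 and 4.74 CPM in GW2580 1 to 5. The same 3 libraries were highest, with GW2580 3 next, and the groups overlapped. Syp had a log2 fold change of -0.29 ± 0.57 (edgeR p = 0.616, adjusted p = 0.832; exact permutation p = 0.730), and it was 0.36 ± 0.51 without Vehicle 2 and, as a call, 1.06 ± 0.42 without Vehicle 2 and Vehicle 5.

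Slc17a7 and Gad1 mark the 2 main transmitters. Slc17a7 (NCBI gene 72961, chr7:45163921-45176139) encodes VGLUT1, which loads glutamate into vesicles in cortical and hippocampal excitatory neurons. It was at 3.03, 55.8, 2.00, 3.33 and 70.7 CPM in Vehicle 1 to 5 and at 3.34, 1.98, 4.83, 38.0 and 3.45 CPM in GW2580 1 to 5. As for Camk2a, Vehicle 5 was the highest library, and the 7 libraries outside the high 3 lay between 1.98 and 4.83 CPM. Slc17a7 had a log2 fold change of -1.38 ± 1.04 (edgeR p = 0.206, adjusted p = 0.539; exact permutation p = 0.397). It was called lower without GW2580 4, at -2.97 ± 1.03 (adjusted p = 0.417), and higher without Vehicle 2 and Vehicle 5, at 1.88 ± 0.83 (adjusted p = 0.351).

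Gad1 (NCBI gene 14415, chr2:70561303-70602014) encodes GAD67, the enzyme that makes GABA from glutamate. The level of Gad1 was 5.34, 14.5, 2.42, 3.45 and 8.48 CPM in Vehicle 1 to 5 and 4.67, 4.35, 2.89, 6.91 and 3.79 CPM in GW2580 1 to 5. The same 3 libraries were highest, at 6.91 to 14.5 CPM against 2.42 to 5.34 CPM in the other 7, and the groups overlapped. Gad1 had a log2 fold change of -0.59 ± 0.45 (edgeR p = 0.207, adjusted p = 0.540; exact permutation p = 0.389). A pseudogene copy, Gad1-ps, was counted separately at 1.17 to 4.26 CPM. Only uniquely aligned fragments were counted, so any that align equally to both genes are missing from the count of Gad1. How many there were was not tested.

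Rbfox3 and Nefl mark the neuronal nucleus and axon. Rbfox3 (NCBI gene 52897, chr11:118489760-118911597) encodes the splicing factor known as the NeuN antigen. It was at 25.3, 95.8, 21.8, 26.6 and 36.7 CPM in Vehicle 1 to 5 and at 11.6, 16.2, 10.1, 25.7 and 31.6 CPM in GW2580 1 to 5. GW2580 1, GW2580 2 and GW2580 3 lay below all 5 vehicle libraries, while GW2580 4 and GW2580 5 lay within their range. The group means were 41.3 ± 31.0 and 19.0 ± 9.29 CPM (SD, n = 5 each). Rbfox3 was called lower, with a log2 fold change of -1.12 ± 0.47 (edgeR p = 0.0315, adjusted p = 0.304; exact permutation p = 0.0794). Without Vehicle 2 it was not called, at -0.54 ± 0.38 (adjusted p = 0.647). Leaving out GW2580 1, GW2580 2 or GW2580 3 also ended the call, at log2 fold changes of -0.97, -1.06 and -0.95, and on library size alone it was -0.73 (adjusted p = 0.461), not a call.

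Nefl (NCBI gene 18039, chr14:68083863-68089095) encodes the light chain of neurofilaments, which fill large axons. Nefl was at 1.88, 123, 1.09, 1.89 and 9.55 CPM in Vehicle 1 to 5 and at 4.57, 3.69, 5.45, 36.6 and 2.71 CPM in GW2580 1 to 5. Vehicle 2 was the highest, while Vehicle 1, Vehicle 3 and Vehicle 4 were each below every GW2580 library. Nefl had a log2 fold change of -1.37 ± 1.17 (edgeR p = 0.261, adjusted p = 0.587; exact permutation p = 0.770). It turned to 1.55 ± 0.85 without Vehicle 2 (adjusted p = 0.558), not a call, and to 2.69 ± 0.81 without Vehicle 2 and Vehicle 5 (adjusted p = 0.351), a higher call. Without GW2580 4 it was called lower, at -2.73 ± 1.25 (adjusted p = 0.427). Without Vehicle 2, Vehicle 5 and GW2580 4, a choice made after the values were seen, it was 1.25 ± 0.39 (adjusted p = 0.425) and called higher.

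Meg3 (NCBI gene 17263, chr12:109540996-109571729), an imprinted long noncoding RNA abundant in neuronal nuclei, had almost no counts. It had 1 count in Vehicle 2, 1 in GW2580 4 and 2 in GW2580 5 and none in the other 7 libraries, and was not tested. The exons of Meg3 were annotated on chromosome 12 and again on a second sequence of the assembly. Fragments that align to more than 1 place were not counted, so the count of Meg3 may not measure its level. Whether this lowered the count was not tested. Olfml3, a microglial marker annotated on 2 sequences with 1736 of 3472 exon bases on the first, was among the genes tested. Of the 1867 genes annotated on more than 1 sequence, 38.2% had no count in any library, against 3.05% of the 44285 genes annotated on 1 sequence. Of the exon bases of Meg3, 17.1% were also shared with other genes, among them Rtl1 on the opposite strand. No other of the 10 genes shared exon bases with a gene on either strand.

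In all, 2 of the 9 tested genes, Nrgn and Rbfox3, were lower with GW2580 and none was higher, where 6.7% of all 28419 genes tested were lower, 4.01% were higher and 10.7% were called in all. With the p alone, at any fold change, the same 2 genes passed, against 14.7% of all genes. Without Vehicle 2, 0 of 9 genes were called, where 7.65% of all genes were then called. The call of Rbfox3 also ended without GW2580 1, GW2580 2 or GW2580 3. None of the 9 passed an adjusted p of 0.05. Over all genes 0 passed it in edgeR's quasi-likelihood test and 0 in limma-trend, 22 in edgeR's exact test and 177 in DESeq2, none of them among the 9. DESeq2 gave a p for only 7 of the 9, not for Nrgn and Nefl, which therefore could not pass there. The median log2 fold change of the 9 genes was -1.12, against -0.026 over all genes tested, and 8 of the 9 fitted values were below 0, against 51.6% of all genes. By group medians the split was different, with 3 genes lower and 6 higher with GW2580. All 9 genes had overlapping groups, as did all but 3.03% of the genes tested.

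Removing single libraries moved the calls both ways. Leaving out GW2580 4 gave 6 lower calls, Nrgn, Snap25, Rbfox3, Camk2a, Slc17a7 and Nefl, where 5.95% of all genes were then called lower. Leaving out Vehicle 2 and Vehicle 5 together gave 4 higher calls, Snap25, Syp, Slc17a7 and Nefl, and a median log2 fold change of 1.01, where 5.09% of all genes were then called higher. With all 3 high libraries left out, 1 gene was called, Nefl, which was higher, where 2.96% of all genes were then called higher, and the median was 0.18. Scaling mattered less: with library size alone the median over all genes moved from -0.026 to 0.23 and that of the 9 genes from -1.12 to -0.67, with 7 of 9 values below 0.

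**Figure D2:**
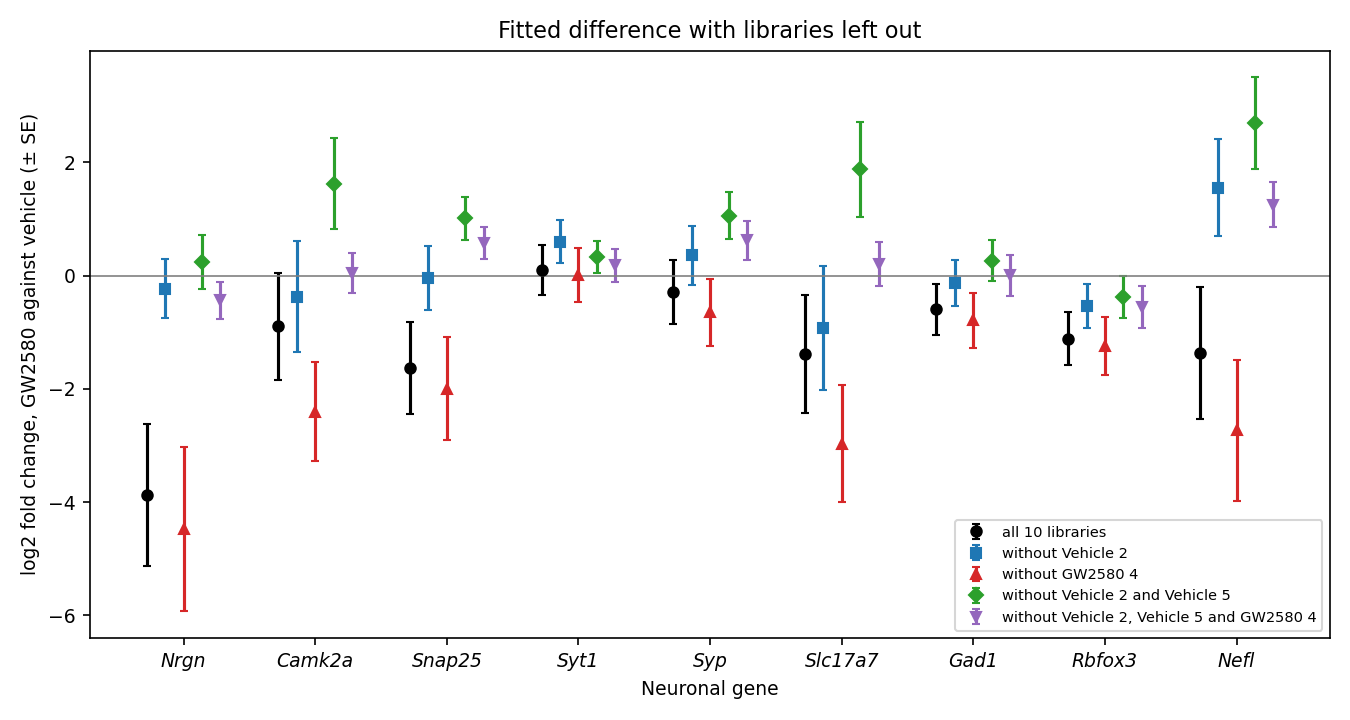
Fitted log2 fold change of GW2580 against vehicle (points, bars are ± 1 SE) for the 9 tested neuronal genes with all 10 libraries and with named libraries left out. Camk2a lies at -0.90 with all libraries, at -2.40 without GW2580 4 and at 1.62 without Vehicle 2 and Vehicle 5, while Syt1 and Gad1 stay within 1 of 0 throughout.

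The 3 libraries differed in which neuronal genes made up their signal. Nrgn made 58.0% of the summed level in Vehicle 2 (exact 95% binomial interval 57.4 to 58.6%), against 8.69% in Vehicle 5 (7.99 to 9.44%) and 10.6% in GW2580 4 (9.88 to 11.4%). In the other 7 libraries its share was between 7.94 and 19.5%. Camk2a made 32.7% in Vehicle 5 (31.5 to 33.9%) and 30.8% in GW2580 4 (29.7 to 32.0%), against 6.66% in Vehicle 2 (6.34 to 6.99%). These intervals cover counting error only. The ratio of Nrgn to Camk2a counts was 8.71 in Vehicle 2, 0.266 in Vehicle 5 and 0.345 in GW2580 4, and it lay between 0.751 and 2.22 in the other 7 libraries.

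Other pairs did not split the libraries the same way. The count ratio of Slc17a7 to Gad1 was raised in all 3 libraries, at 3.85 in Vehicle 2, 8.34 in Vehicle 5 and 5.50 in GW2580 4, against 0.455 to 1.67 elsewhere. The count ratio of Snap25 to Syt1, a SNARE against its calcium sensor, was 17.0 in Vehicle 5 and 9.07 in Vehicle 2, but 2.54 in GW2580 4, near the 0.788 to 2.50 of the other 7 libraries. Rbfox3 made 33.9% of the summed level in Vehicle 1 and 6.00% in Vehicle 2. Its level spanned 9.48 times from the lowest to the highest library, against 165 times for Nrgn, and its share was low in the libraries with the highest sums.

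**Figure D3:**
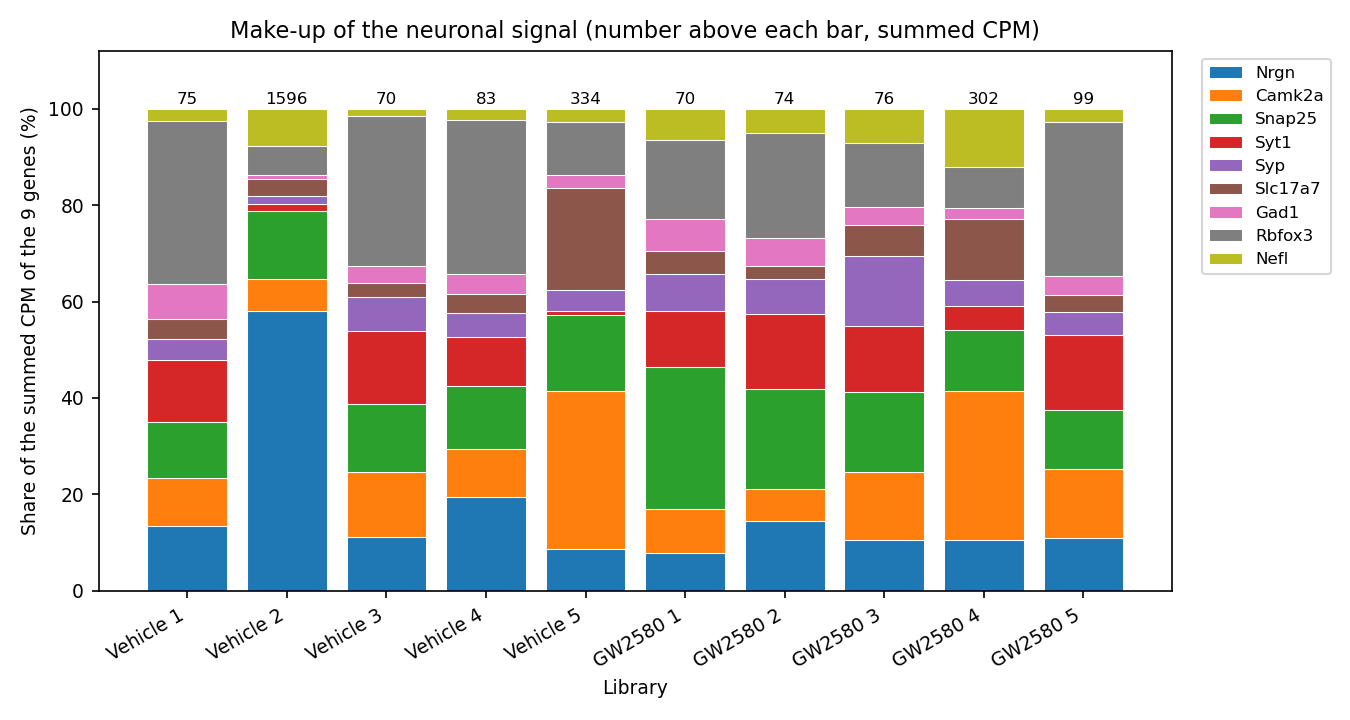
Share (%) of each of the 9 tested neuronal genes in their summed CPM, 1 stacked bar a library, with the summed CPM above each bar. Nrgn fills 58.0% of the bar of Vehicle 2, and Camk2a and Slc17a7 widen in Vehicle 5 and GW2580 4.

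To set the genes beside each other, CPM were divided by exon length in kb. As a yardstick of genes not expected in brain, 1006 olfactory receptor genes were taken, whose 95th percentile lay between 1.02 and 4.08 CPM per kb in the libraries. Nrgn, at 4.33 to 716 CPM per kb, and Snap25, at 3.35 to 86.7 CPM per kb, were above that percentile in 10 of 10 libraries. Camk2a and Syp were above it in 5 libraries each, Syt1 in 4, Slc17a7 and Nefl in 3 each, and Rbfox3 and Gad1 in Vehicle 2 alone. By its median over 10 libraries the order was Nrgn at 8.37, Snap25 at 5.46, Syp at 2.19, Syt1 at 1.94, Camk2a at 1.77, Nefl at 1.22, Slc17a7 at 1.15, Rbfox3 at 0.995 and Gad1 at 0.810 CPM per kb. The ranges of each pair of neighbours in this order overlapped. The exon length of Rbfox3, 25627 bases, was the greatest of the 9 genes. Outside the 3 high libraries, 2 to 5 of the 9 genes were above the 95th percentile of the olfactory receptors.

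**Figure D4:**
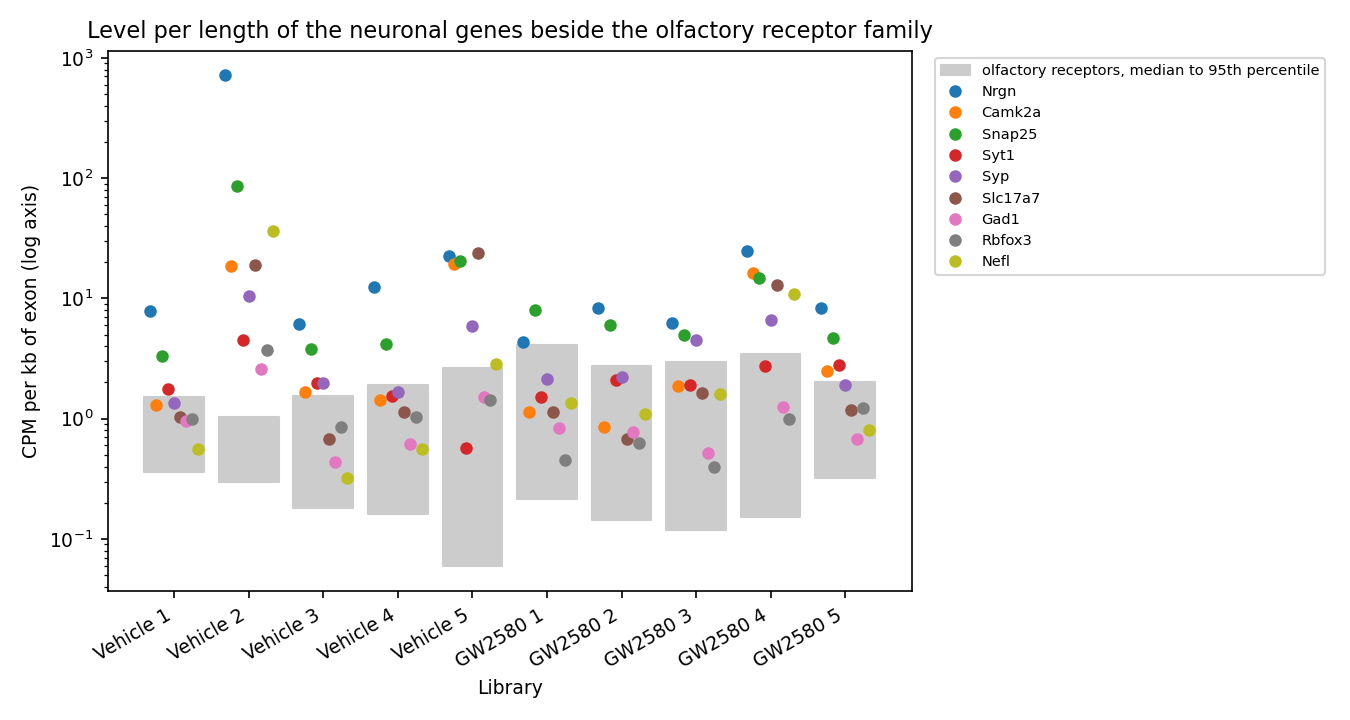
CPM per kb of exon (log axis) of the 9 tested neuronal genes in each library, with a grey bar from the median to the 95th percentile of 1006 olfactory receptor genes in the same library. In Vehicle 2 all 9 genes lie above the grey bar and in Vehicle 5 and GW2580 4 there are 6, while the other libraries have 2 to 5.

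The treatment effect was fitted within each sex, with 2 male and 3 female mice a group. Nrgn had a log2 fold change of -5.83 ± 1.57 in male and -0.06 ± 1.04 in female mice, and the difference between the sexes was -5.77 ± 1.79 (adjusted p = 1.00). Nefl had -3.91 ± 1.63 in male and 1.83 ± 1.23 in female mice, a difference of -5.74 ± 2.03 (adjusted p = 1.00). Before adjustment the edgeR interaction p was under 0.05 for these 2 of the 9 genes, and for 2.52% of all genes tested. Vehicle 2 was 1 of the 2 male vehicle libraries, so the effect in males and that library cannot be told apart. With sex as a covariate, 0 of the 9 genes were called, where 9.41% of all genes were called.

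Genes of the same synaptic machinery were read from further lists. Of 27 tested genes of vesicle fusion and synaptic vesicles, 5 were called lower with GW2580, among them Cplx2, Sncb, Dnm1 and Synpr, and none higher. Of all genes 6.7% were lower and 4.01% higher, the shares to set beside the count of this and each following list. The abundant SNARE partner Vamp2 was at 69.4, 388, 73.8, 72.0 and 298 CPM in Vehicle 1 to 5 and at 61.3 to 145 CPM in the GW2580 libraries, with a log2 fold change of -0.91 ± 0.54. Nsf, the ATPase that takes SNARE complexes apart, had 0.07 ± 0.34. Syngr1, which encodes a vesicle protein, was not raised in the 3 high libraries as a set, with 571 to 651 CPM in Vehicle 1 to 4, 109 CPM in Vehicle 5 and 80.8 to 450 CPM in the GW2580 libraries (-0.96 ± 0.54).

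Of 26 tested genes of the postsynaptic density and receptors, 4 were called lower, among them Camk2n1, Shank1 and Calm3, and none higher. Calm2 and Calm3, which encode calmodulin in all cell types, had log2 fold changes of -0.75 ± 0.46 and -1.86 ± 0.50. Of 11 tested genes of glutamatergic identity, 4 were called lower, Neurod2, Bcl11b, Emx1 and Cux2. Cux2, a factor of upper-layer cortical neurons, was at 22.6, 26.5, 31.6, 38.6 and 77.9 CPM in Vehicle 1 to 5 and at 8.39 to 25.3 CPM with GW2580 (log2 fold change -1.21 ± 0.42). Rasgrf2 had a log2 fold change of 0.25 ± 0.25.

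The list of GABAergic identity had 7 of 13 tested genes called lower and none higher. Pvalb, the calcium buffer of fast-spiking interneurons, was at 53.7 CPM in Vehicle 2 and at 0.445 to 3.93 CPM in the other 9 libraries (log2 fold change -3.05 ± 0.99). Calb2 was at 46.5 CPM in Vehicle 2 and at 1.18 to 7.08 CPM elsewhere (-2.27 ± 0.84). Vehicle 2 was thus the highest library for both, as it was for Gad1.

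Of 17 genes of the neuronal cytoskeleton and axon, 7 were called lower and none higher. Kif5a, a kinesin motor of axons, was at 18.0, 634, 14.9, 20.0 and 502 CPM in Vehicle 1 to 5 and at 32.0, 18.0, 29.2, 389 and 19.0 CPM in GW2580 1 to 5 (log2 fold change -1.29 ± 1.16). As for Camk2a, Vehicle 2, Vehicle 5 and GW2580 4 were the highest libraries. Gap43, a growth cone protein, was at 154 CPM in Vehicle 2 and at 1.72 to 16.6 CPM elsewhere (-3.42 ± 1.12). Rtn1 was at 53.6 to 256 CPM in all libraries (0.22 ± 0.46).

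The neuronal RNA-binding and nuclear list had 2 of 13 tested genes called lower, Elavl3 and Celf5. Celf4, an RNA-binding protein of excitatory neurons, was at 269 CPM in Vehicle 2, 80.9 CPM in GW2580 4 and 54.5 CPM in Vehicle 5 and at 7.35 to 14.0 CPM elsewhere (-1.53 ± 0.96). Elavl4 was even, at 13.3 to 25.7 CPM (0.08 ± 0.27). Mirg, a noncoding RNA of the same imprinted region as Meg3, was at 2.56 to 6.60 CPM (-0.25 ± 0.36), and Rian of that region had no count and was annotated on 2 sequences as Meg3 was. Of 8 tested markers of newborn neurons, 1 was called lower, Stmn1, with 740 CPM in Vehicle 2 and 26.1 to 128 CPM elsewhere. Cd24a and Tubb2b had log2 fold changes of -0.20 ± 0.69 and 0.21 ± 0.36.

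Over these 6 neuronal lists, newborn neurons aside, 29 of 107 tested genes (27.1%) were called lower and 0 higher by the edgeR rule, against 6.7% lower and 4.01% higher of all genes. Without Vehicle 2 there were 7 of 104 lower (6.73%), where 4.66% of all genes in that fit were lower. Without Vehicle 2 and Vehicle 5 there were 6 higher and 3 lower of 103, where 5.09% of all genes were higher and 3.42% lower. Without all 3 high libraries there were 0 higher and 3 lower of 102 by the edgeR rule, Syngr1, Dlx5 and Celf5, where 3.55% of all genes were lower. With library size alone 12 were lower and 5 higher of 107, and the median of the postsynaptic list turned from -0.22 to 0.14 and that of the RNA-binding list from -0.15 to 0.24. The median log2 fold changes of the other 4 lists stayed below 0 under each scaling. As reported they were -0.71 for vesicle genes, -0.84 for glutamatergic identity, -1.87 for GABAergic identity and -1.29 for the cytoskeleton. They did not all stay below 0 with libraries left out. Without Vehicle 2 and Vehicle 5 they were 0.45, -0.063, -0.49 and 0.40 in that order. Without all 3 high libraries they were 0.26, -0.31, -0.59 and 0.070.

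Glial markers were high in the same libraries as the neuronal genes. The 10 astrocyte markers summed to 3384 CPM in Vehicle 2, 1782 CPM in Vehicle 5 and 676 CPM in GW2580 4, against 204 to 369 CPM in the other 7 libraries. Of these markers 4 of 10 were called lower, against 6.7% of all genes, among them Aldoc (-2.79 ± 1.28) and S100b (-2.64 ± 1.06), while Slc1a3 had -0.22 ± 0.36. Of the oligodendrocyte markers 5 of 10 were called lower, among them Mbp (-3.01 ± 1.36), at 14645 CPM in Vehicle 2, and Mobp (-2.75 ± 1.28), while Cnp had -0.70 ± 0.57. Of the choroid plexus and ependymal markers 7 of 8 were called lower, among them Ttr (-2.48 ± 1.04), Folr1 (-2.71 ± 0.90) and Clic6 (-3.97 ± 1.48). Of the 28 tested markers of these 3 lists 16 were called lower and 0 higher with all libraries in edgeR. There were 10 lower and 0 higher of 27 without Vehicle 2, 6 lower and 1 higher of 27 without Vehicle 5, and 19 lower and 0 higher of 28 without GW2580 4. Of all genes 4.66%, 6.74% and 5.95% were lower in these left-out fits, in that order, and 2.99%, 6.18% and 2.67% higher. Without Vehicle 2 and Vehicle 5 there were 1 lower and 8 higher of 27, among the higher ones Aldoc, Gjb6, Mbp, Mobp and Clic6. Of all genes 3.42% were then lower and 5.09% higher. Without all 3 libraries there were 1 lower, Ccdc153, and 1 higher, Clic6, of 27 (3.7% each), where 3.55% of all genes were lower and 2.96% higher. The median log2 fold change of the astrocyte markers turned from -1.64 to 0.88 without Vehicle 2 and Vehicle 5. Without Vehicle 5 alone the lower choroid plexus and ependymal calls were 2, Foxj1 and Ccdc153, with Clic6 called higher, and the median of that list moved from -2.29 to -0.57. None of the 10 endothelial and mural markers was called with all libraries, and 1, Pdgfrb, was called lower without GW2580 4, without Vehicle 3 or without Vehicle 4. With all libraries Pecam1 was at 0.26 ± 0.32, Vtn at -0.95 ± 0.63 and Kcnj8 at -0.72 ± 0.38 on the log2 scale. No marker of these 4 lists was at 0 in all libraries.

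The lists ranked the 3 high libraries differently. The sum of the oligodendrocyte markers and that of the 9 neuronal genes were highest in Vehicle 2. Mbp alone made 14645 of the 17995 CPM of the oligodendrocyte sum there. Gene by gene, Vehicle 5 was the highest library for 7 of the 10 tested oligodendrocyte markers and Vehicle 2 for 3. The choroid plexus sum was highest in Vehicle 5, as were the sums of glutamatergic identity (236 CPM, against 104 CPM in Vehicle 2) and GABAergic identity (244 CPM, against 237 CPM in Vehicle 2). In GW2580 4 the choroid plexus sum was the lowest of all libraries, at 190 CPM, though the sum of the 9 neuronal genes was raised. Microglial markers were at their lowest sums in Vehicle 5 and GW2580 4, at 23010 and 29817 CPM, but at 62821 CPM in Vehicle 2. Of the 13 tested microglial markers 2 were called higher with GW2580, Cx3cr1 and Csf1r, and none lower, where 4.01% of all genes were higher and 6.7% lower. Only Csf1r was called without all 3 high libraries. Neither was called without Vehicle 1, without Vehicle 2 or without GW2580 3, which was the highest library for both. With all libraries the log2 fold changes were -0.88 ± 0.63 for C1qb and -0.80 ± 0.63 for C1qc. The part of other cells in the neuronal values was not tested.

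**Figure D5:**
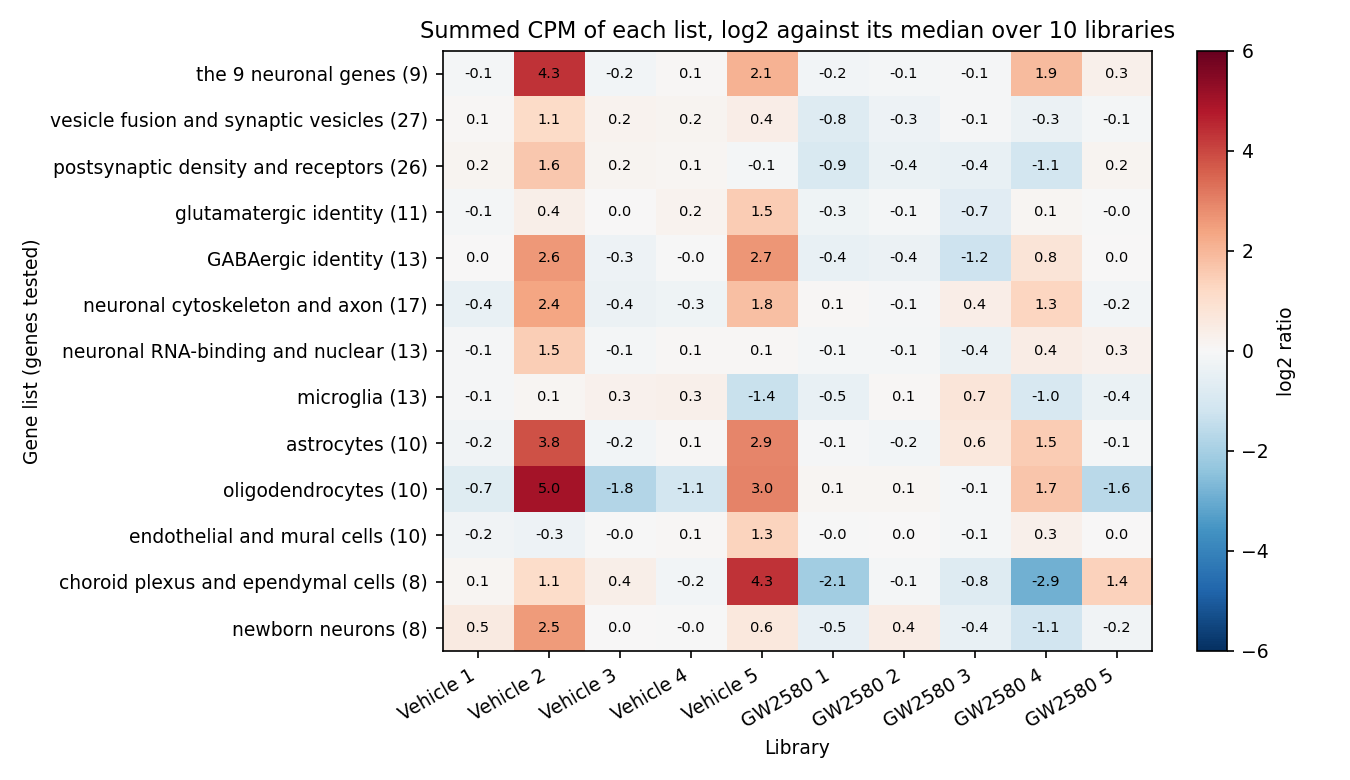
Summed CPM of each gene list in each library as the log2 ratio to the median of that list over 10 libraries (colour and printed value), with the number of genes tested in brackets. The row of the 9 neuronal genes stands at 4.3 in Vehicle 2, 2.1 in Vehicle 5 and 1.9 in GW2580 4, the astrocyte and oligodendrocyte rows are highest in the same 3 libraries, and the choroid plexus row is highest in Vehicle 5 and lowest in GW2580 4.

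Of all 28419 genes tested, those whose level over the 10 libraries was nearest to the mean profile of the 9 genes were Septin3, Syn2, Doc2g, Syt5 and Nsg1, with root mean square distances of 0.23, 0.24, 0.27, 0.30 and 0.31 on the centred log2 scale. The 9 genes themselves were at distances between 0.40 (Snap25) and 1.20 (Syt1). Septin3 was at 9.31, 80.9, 4.76, 7.52 and 29.0 CPM in Vehicle 1 to 5 and at 7.45, 7.38, 7.95, 37.4 and 7.65 CPM in GW2580 1 to 5 (log2 fold change -0.95 ± 0.74). Syn2, which encodes synapsin II on synaptic vesicles, was at 52.8 CPM in Vehicle 2, 18.6 CPM in GW2580 4 and 12.5 CPM in Vehicle 5 and at 2.67 to 6.64 CPM elsewhere (-1.03 ± 0.76). Doc2g, Syt5 and Nsg1 had log2 fold changes of -1.32 ± 0.76, -1.33 ± 0.68 and -1.38 ± 0.71, and none of the 5 genes was called. These distances are over 10 libraries that share their depth and make-up.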

How the data were processed

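RNA of CD11b-selected microglia was measured in 5 Vehicle and 5 GW2580 libraries. Per the labels, the paper's methods and the file headers, the authors aligned the paired reads to GRCm38 with STAR and counted uniquely aligned fragments per RefSeq gene with featureCounts, for which the headers give version 1.6.3. The deposited files hold raw counts per gene and library, the gene length in bases, and a summary of assigned and unassigned records, which gave 38.4 to 60.1% of records with no annotated feature. Strand was not used, so genes that overlap on opposite strands cannot be told apart.

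Gene identifiers were matched to symbols for 46029 of 46152 genes in the RefSeq GRCm38 gene table. Counts were scaled by TMM and tested with edgeR 4.0.16 (quasi-likelihood F test, treatment as the only term) for the 28419 genes above 1 CPM in at least 3 libraries. Calls used the thresholds stated in the methods, 0.05 for the unadjusted p and 2 for the fold change, and p-values adjusted over all genes by Benjamini-Hochberg are given beside them. Exact permutation tests were two-sided. CPM per kb used the deposited gene length, and log2 profiles a prior count of 2. Alternatives were DESeq2 1.42.0, limma 3.58.1, edgeR's exact test, other scalings and filters, thinned counts, sex, the replicate number and left-out libraries. The fit was tested on simulated data.

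The 10 genes and the further lists were chosen with earlier results of these data known. Named were all 10 genes, the 3 tested genes of highest mean CPM per kb in each further list, and the 5 genes nearest to the mean profile. Some genes that this rule names are not reported here. Genes of a list named because they were called were chosen after their values were seen. No pair of libraries of a group agreed within sampling noise, with a chi-square per degree of freedom of at least 6.08.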

Additional observations from a re-analysis of the deposited data

Results flagged for a closer look

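In groups of 5 libraries, a library was taken to stand apart where its gap to the next, divided by the range of the group, passed Dixon's critical value of 0.71. This was so in 10 of the 20 groups examined, the 9 tested neuronal genes and their sum in each treatment group. The nominal rate of about 1 in 20 cannot be set against this count. The groups share the same libraries, the sum is made of the 9 genes, and the CPM were not on a log scale. Each time the library was Vehicle 2 or GW2580 4.

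In the vehicle group, Vehicle 2 stood apart for Nrgn at 926 CPM (gap ratio 0.977), Nefl at 123 CPM (0.931), Rbfox3 at 95.8 CPM (0.798), Snap25 at 224 CPM (0.796) and the sum of the 9 genes at 1596 CPM (0.827). Camk2a and Slc17a7 were not among them there, since Vehicle 5 was above Vehicle 2.

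In the GW2580 group, GW2580 4 stood apart for Slc17a7 at 38.0 CPM (0.921), Nefl at 36.6 CPM (0.919), Camk2a at 93.0 CPM (0.895), Nrgn at 32.0 CPM (0.802) and the sum at 302 CPM (0.878). It had the highest TMM factor, 1.61, and the largest percentage of records without a feature, 60.1%. The part of either in these levels was not tested.

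The effect of GW2580 differed between male and female mice by -5.77 on the log2 scale for Nrgn and by -5.74 for Nefl in the edgeR interaction test, before adjustment only. With Vehicle 2 as 1 of 2 male vehicle libraries, sex and that library cannot be told apart.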

How the results depend on the processing

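Over 22 other fits, 196 fold changes of the 9 tested genes were compared with those reported: 151 kept their direction and their side of the threshold, 14 lost a call, 10 gained one and 21 changed sign. None of the sign changes belonged to Rbfox3, whose log2 fold change lay between -1.45 and -0.38. With 1 library left out, Syt1 lay between -0.14 and 0.60, Syp between -0.65 and 0.36 and Nefl between -2.73 and 1.55. The cause of the changes was not tested.

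The 2 calls became 1 on library size alone (Nrgn) and with limma-trend (Rbfox3), where 10.55% and 9.77% of all genes were called. They became 0 with sex as a covariate, where 9.41% of all genes were called, and 0 at an adjusted p under 0.05. They became 4 without Vehicle 2 and Vehicle 5, where 8.5% of all genes were called. Without GW2580 4 as well, a choice made after seeing the data, they became 1, where 6.5% of all genes were called. Leaving out 1 library gave 0 calls (Vehicle 2) to 6 (GW2580 4), where 7.65% and 8.62% of all genes were called. DESeq2 called Snap25 and Rbfox3 and gave no p for Nrgn and Nefl. Over all genes, 3046 calls became 4802 without a filter, 1719 without the 3 libraries and 0 at an adjusted p, where 4186 genes had an unadjusted p under 0.05, and 1684 to 4848 with 1 library left out. On library size alone 2123 calls were higher and 875 lower, against 1141 and 1905.

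Without Vehicle 2 and Vehicle 5 the log2 fold changes were 0.23 for Nrgn, 1.01 for Snap25, 1.62 for Camk2a, 1.06 for Syp, 1.88 for Slc17a7, 0.26 for Gad1 and 2.69 for Nefl. Without GW2580 4 as well they were 0.58 for Snap25, 0.049 for Camk2a, 0.62 for Syp, 0.21 for Slc17a7, 0.0026 for Gad1 and 1.25 for Nefl. Without Vehicle 2 alone Syp was at 0.36 and Nefl at 1.55, and Syt1 was at -0.14 without Vehicle 5 and at -0.093 without GW2580 5. Syp was at 0.11 on library size alone and Nefl at 0.17 with limma-trend. The exact permutation p was 0.857 for Syp on library size alone and 0.913 for Nefl on log2 CPM, both with the sign changed.

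The replicate numbers did not pair the libraries, since the correlations of their deviations were 0.080, 0.135, -0.055, -0.069 and -0.392 and 1 of 10 libraries was closest to its own number. With the replicate number as a block 0 of the 9 genes and 2554 of all genes were called, with Syp at 0.034 and Nefl at 0.48.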
